A study of Mus musculus with 4 samples.

Results

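The genes described here encode the guidance cues of growing axons and their receptors: the Eph receptors and ephrins, the semaphorins with their plexin and neuropilin receptors, the Slits and Robos, and the netrins with the Unc5 receptors. They were chosen by the gene name printed on the array, as every name starting with Epha, Ephb, Efna, Efnb, Sema3 to Sema7, Plxn, Nrp1, Nrp2, Slit1 to Slit3, Robo, Ntn or Unc5. This gave 72 genes and 94 probes out of 36039 genes and 55681 probes. Results of these arrays were known when the families were picked, among them the rise of Ephb1 from ES to ELA, so the values that follow are a description of 4 arrays. The prefix Unc5 also takes in Unc50 and Unc5cl, which are not netrin receptors and were kept out of the counts of ligands and receptors.

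RNA came from the mouse embryonic stem (ES) cell line E14Tg2A, of 129/Ola origin, and was read on 4 single-colour Agilent arrays, 1 array per group. The ES group was untreated and taken at day 0, from cells grown in serum with leukemia inhibitory factor. The ELA group (epiblast-like aggregates, the primed state) was untreated and taken at day 2, after suspension culture in a chemically defined minimal medium without that factor. The remaining groups were ELA formed for the same 2 days in the presence of 50 nM 5-azacytidine (AZA), a DNA methyltransferase inhibitor, or of 100 µM 5-carboxy-8-hydroxyquinoline (CHQ), a lysine demethylase inhibitor. All groups stem from 1 line, and each array carried a pool of RNA from 3 sets of experiments, so there is no replicate array, no error between experiments and no test across genes. Because the RNA is bulk, fewer cells of a type and less RNA per cell cannot be told apart.

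Eph receptors are receptor tyrosine kinases whose ligands, the ephrins, are held in the membrane of a neighbouring cell, by a lipid anchor for ephrin-A and by a membrane-spanning segment for ephrin-B. Signals run in both directions at the contact and usually repel or sort cells. Semaphorins signal through plexins, the secreted class 3 members mostly with a neuropilin as co-receptor, Slits signal through Robo receptors, and netrins attract axons through Dcc and repel them through Unc5 receptors. The same families shape cell contacts, blood vessels and tissue boundaries in embryos, outside the nervous system.

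Levels are given as log2 of the normalised intensity of a gene's brightest probe, and differences as log2 differences between 2 arrays. Intensities of different probes are not comparable, so a gene is set only against itself on another array. The summed intensities of marker lists, given below, follow the brightest probes of each list. A gene was tested for size in a comparison when the mean log2 of both arrays was at least 7.5 and either array showed its probe well above background, and it was called when the difference then reached 1 (a 2-fold change). Repeated spots of a probe varied within an array by an SD of 0.12 to 0.17 in log2, a spread that covers spotting and reading only. Spots well above background made up 55.1% of gene spots on ELA and 60.6% on ES, which lay on the first slide, and 69.1% on AZA and 69.2% on CHQ, which lay on the second. The median local background was 59 and 77 units on the first slide and 14 and 13 on the second, so a difference between a treated array and ELA holds both slide and treatment, which cannot be told apart. The comparisons of ELA with ES and of CHQ with AZA lie within 1 slide.

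The labelled cell state was checked on marker genes. All 6 markers of pluripotent cells and all 4 of the primed epiblast were well above background on all 4 arrays. The pluripotent list summed to 17.43 in log2 on ES, 15.88 on ELA, 17.53 on AZA and 17.24 on CHQ. Of its genes 3 were called lower in ELA than in ES, 3 higher with AZA and 2 higher with CHQ. Its members differed: Zfp42 read 15.76, 11.99, 15.74 and 15.06 in the same order and Nanog 15.01, 12.53, 15.41 and 12.54, while Pou5f1 read 14.93, 14.46, 14.05 and 13.57 and was not called. The primed list summed to 17.84, 18.86, 17.64 and 18.12, with 2 genes called higher in ELA than in ES, 3 lower with AZA and 1 lower with CHQ. That sum is led by Dnmt3b, which read 17.39, 18.45, 16.77 and 17.46. Fgf5 read 11.61, 14.48, 11.94 and 13.33, and Otx2 15.26, 15.86, 16.20 and 15.57 without a call. Of 8 neuron markers, 7 or 8 were well above background on each array. Their summed intensity was 15.23 in log2 on ES, 15.22 on ELA, 14.49 on AZA and 14.16 on CHQ. Between ES and ELA their median difference was 0.61, with Rbfox3 (1.20) and Elavl3 (1.27) called higher. None was called higher than in ELA with a treatment, while 4 were called lower with AZA and 3 with CHQ. The 6 neural progenitor markers summed to 13.05 on ES, 14.06 on ELA, 12.52 on AZA and 12.81 on CHQ, with Hes5 and Zic1 called higher in ELA than in ES, 3 of the list called lower with each treatment and 1 called higher with CHQ. Of 6 endothelial markers 4 were well above background on every array, and Cdh5 and Tie1 were not well above background on any array. The list had a summed log2 intensity of 13.01 to 13.32. That sum is led by Kdr, which differed by 0.22 in ELA minus ES, -0.96 in AZA minus ELA and -1.05 in CHQ minus ELA. Tek and Vwf, of the same list, went the other way, by -1.94 and -2.13, then 2.45 and 4.45, then 3.75 and 2.68. Pecam1 was called higher with AZA (1.12). The 6 primitive endoderm markers summed to 9.61 on ES, 10.18 on ELA, 9.99 on AZA and 11.16 on CHQ. Gata6 and Sox17, not well above background on ES and ELA, were called higher with CHQ than in ELA, by at least 8.82-fold and at least 6.68-fold, and also in CHQ minus AZA (1.84 and 1.75 in log2). Foxa2 and Dab2 were called lower with both treatments, and Foxa2 higher in ELA than in ES (1.82). The 5 trophoblast markers summed to 12.86, 10.61, 12.26 and 13.44, with Tfap2c, which carries that sum, at -2.85 in ELA minus ES, 2.11 in AZA minus ELA and 3.45 in CHQ minus ELA, and Krt7 called higher with CHQ (1.31). Cdx2 and Elf5 of that list were too dim to be tested. Of 5 mesoderm markers 0 were called. The part of these cell types in the results below was not tested.

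In total, 52 of the 72 genes were well above background on all 4 arrays, and 6 were so on none (Epha6, Epha10, Sema3d, Ntng2, Unc5c and Unc5d). By array the number was 58 on ES, 60 on ELA, 59 on AZA and 64 on CHQ. In at least 1 comparison 55 genes were tested, and 35 of them (63.6%) were called at least once, beside 36.4% of the 20546 genes tested in at least 1 comparison. Of the 17 genes never tested, 11 were dim but measured on some array: Epha3, Nrp1, Ntn4, Ntn5, Ntng1, Plxna4, Plxnb3, Robo2, Sema3a, Sema3g and Unc5cl. Over the 55 tested genes the range across the 4 arrays ran from 0.13 for Unc50 to at least 5.05 for Ephb1, with a median of 1.45, and 19 genes spanned at least 2 log2 units.

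The first comparison asked which of these genes differed between ES cells and the primed ELA state. Ephb1, an EphB receptor, had the largest rise among them, an 18.0-fold higher intensity in ELA than in ES, and Nrp2, the class 3 semaphorin co-receptor, the largest fall, 8.13-fold. Under other processing settings these log2 differences ran from 3.57 to 5.08 for Ephb1 and from -3.74 to -2.54 for Nrp2. Of 52 members tested, 10 were called higher in ELA and 5 lower. The background over the 18973 genes tested was 4.51% higher and 5.5% lower, against 19.2% and 9.62% of the members. The members' median difference was 0.44, beside -0.01 over all genes tested. This direction depends on the scaling. With the arrays scaled on the E1A spike-in RNA the median of all genes moved to -0.59 and that of the members to -0.16, which is still above the median of all genes, and 4 of 55 members were called higher (7.27%, beside 1.54% of all genes) and 6 lower (10.9%, beside 18.9%). The members' share of lower calls was thus above that of all genes as first given and below it with this scaling. The calls that ended there were Epha7, Ephb4, Ephb6, Plxnd1, Sema5a and Sema6a, all higher in ELA. How the spike-in RNA was added relative to the RNA input is not given in the sources used here, so what this scaling measures is not settled.

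With AZA, 17 of 53 members were called lower than in ELA and 9 higher. The background over 19167 genes was 11.4% lower and 14.2% higher, against 32.1% and 17.0% of the members. The median difference was -0.57 for the members and -0.07 for all genes. With CHQ, 15 of 55 members were called lower and 10 higher, which is 27.3% and 18.2%, beside 11.9% lower and 14.8% higher among 19182 genes. Here the medians were -0.33 and -0.08. For both treatments the members' share of higher calls was near that of all genes. With the E1A scaling the medians of all genes were -0.26 for AZA and -0.39 for CHQ, and the split of the members became 8 higher against 20 lower for AZA, and 7 against 20 for CHQ. For AZA these are 15.1% and 37.7% of the members, beside 12.6% and 15.1% of all genes. For CHQ they are 12.7% and 36.4%, beside 11.1% and 22.6%, so the higher calls there are near the share of all genes. Both treated arrays were set against the same ELA array, so these comparisons are not independent of each other or of the first.

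When CHQ was set against AZA, on 1 slide and without the ELA array, 10 of 51 members were called higher with CHQ and 1 lower. The shares were 19.6% and 1.96%, beside 5.6% higher and 4.8% lower over 19174 genes. Averaging all probes of a gene ended the higher calls of Efnb2 (0.66) and Epha7 (0.82) through size. It ended those of Plxnc1 and Sema3c through the brightness limit. The median difference was 0.11 for the members and -0.02 for all genes, and with the E1A scaling it was -0.07 and -0.18. The plot of shares sets the members beside all genes in each comparison.

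**Figure D1:**
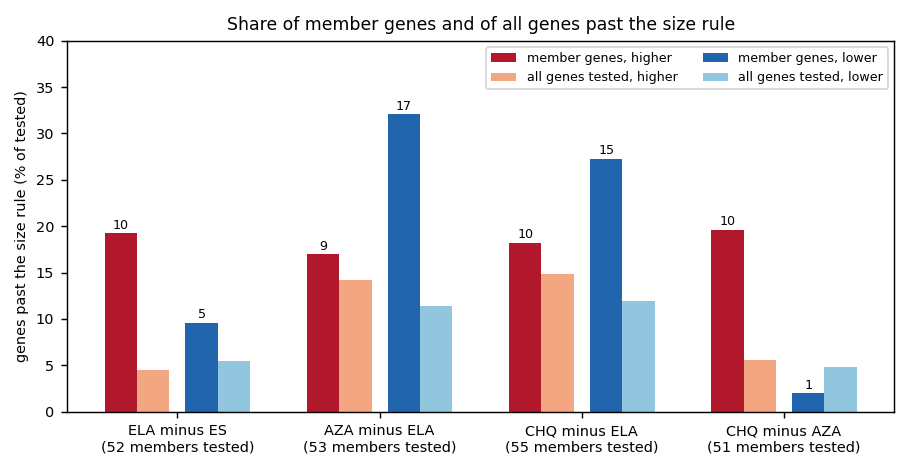
Share of tested genes past the size rule (percent, vertical axis) for each of the 4 comparisons, with dark bars for the member genes and light bars for all genes tested, and the number of member genes above each dark bar. The members' bar is above that of all genes in 7 of the 8 pairs, and below it for genes lower with CHQ than with AZA (1 gene). The bars are near each other for genes higher with AZA (17.0% and 14.2%) and higher with CHQ (18.2% and 14.8%) than in ELA. With the E1A scaling, not plotted, the members' bar is also below for genes lower in ELA than in ES (10.9% and 18.9%).

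**Figure D2:**
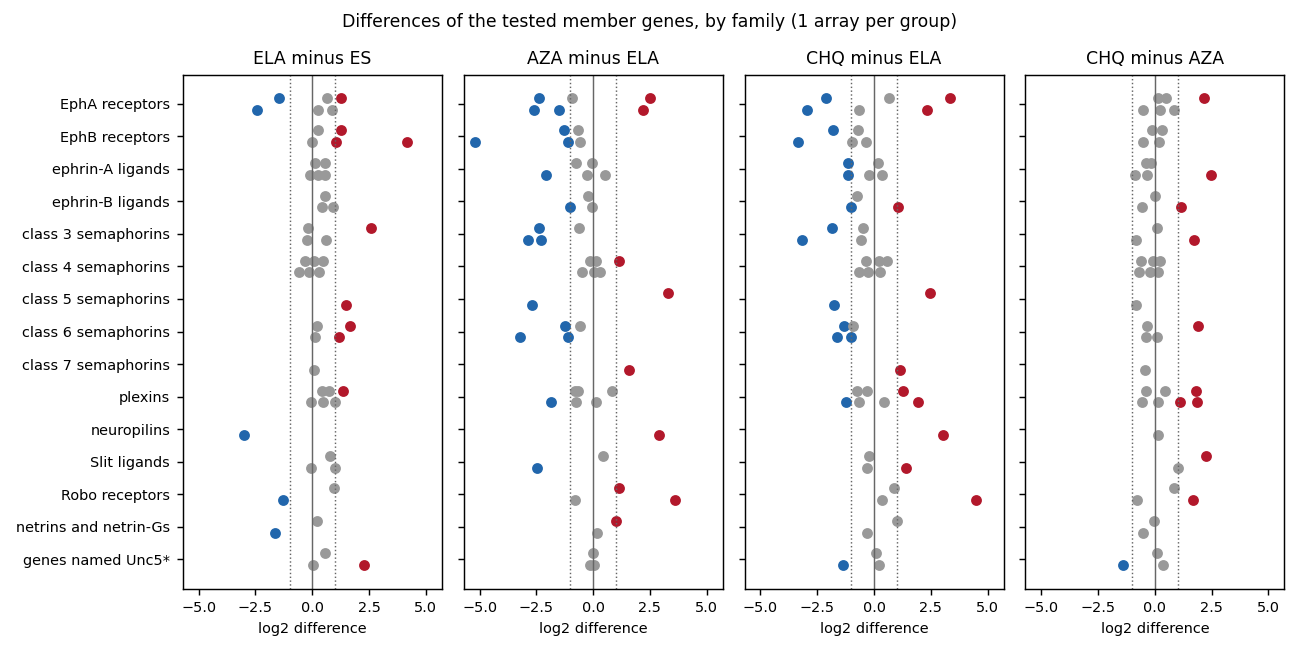
Log2 difference (horizontal axis) of every tested member gene in the 4 comparisons, by family, with 1 array per group. Red points are called higher, blue points called lower and grey points not called, and dotted lines mark a difference of 1 in either direction; Ephb1 lies at 4.17 in ELA minus ES and is the leftmost point in AZA minus ELA, a bound of at least 33.2-fold, since its AZA probe was not well above background.

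Sequence around the start site is shown for a few genes called in the same direction with both treatments. AZA blocks enzymes that methylate cytosine in the dinucleotide CG, so CG is printed in capitals. The windows are from RefSeq (GRCm38.p6), 250 bases before to 50 after the annotated start, in the direction of transcription. Ephb1 (chr9:102354644-102354943, minus strand) and Ephb4 (chr5:137349859-137350158, plus strand) were called lower with both treatments. Epha2 (chr4:141300971-141301270, plus strand), Nrp2 (chr1:62703067-62703366, plus strand), Sema5b (chr16:35541112-35541411, plus strand) and Robo3 (chr9:37433126-37433425, minus strand) were called higher with both.
Ephb1: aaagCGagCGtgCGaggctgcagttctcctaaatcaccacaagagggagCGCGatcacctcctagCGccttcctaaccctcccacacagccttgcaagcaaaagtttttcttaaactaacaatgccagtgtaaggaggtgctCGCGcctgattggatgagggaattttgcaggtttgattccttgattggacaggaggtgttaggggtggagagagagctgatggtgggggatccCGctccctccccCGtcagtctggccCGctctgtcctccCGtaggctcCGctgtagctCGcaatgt
Ephb4: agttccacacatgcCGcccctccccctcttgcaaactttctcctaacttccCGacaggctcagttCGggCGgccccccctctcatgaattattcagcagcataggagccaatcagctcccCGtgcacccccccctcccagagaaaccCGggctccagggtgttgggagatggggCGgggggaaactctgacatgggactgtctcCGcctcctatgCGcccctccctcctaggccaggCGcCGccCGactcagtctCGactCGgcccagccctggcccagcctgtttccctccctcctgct
Epha2: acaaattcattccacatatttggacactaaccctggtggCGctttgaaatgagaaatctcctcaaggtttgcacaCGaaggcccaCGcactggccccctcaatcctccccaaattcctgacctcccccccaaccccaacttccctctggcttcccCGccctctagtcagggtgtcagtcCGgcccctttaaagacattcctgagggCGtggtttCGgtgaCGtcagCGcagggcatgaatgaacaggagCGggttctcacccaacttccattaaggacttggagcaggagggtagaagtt
Nrp2: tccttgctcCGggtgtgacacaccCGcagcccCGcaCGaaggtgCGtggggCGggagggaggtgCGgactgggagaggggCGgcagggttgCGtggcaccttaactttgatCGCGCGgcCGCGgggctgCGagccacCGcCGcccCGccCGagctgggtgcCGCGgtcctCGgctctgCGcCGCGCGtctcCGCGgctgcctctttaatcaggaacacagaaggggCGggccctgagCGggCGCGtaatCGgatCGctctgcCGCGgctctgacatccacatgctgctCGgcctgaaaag
Sema5b: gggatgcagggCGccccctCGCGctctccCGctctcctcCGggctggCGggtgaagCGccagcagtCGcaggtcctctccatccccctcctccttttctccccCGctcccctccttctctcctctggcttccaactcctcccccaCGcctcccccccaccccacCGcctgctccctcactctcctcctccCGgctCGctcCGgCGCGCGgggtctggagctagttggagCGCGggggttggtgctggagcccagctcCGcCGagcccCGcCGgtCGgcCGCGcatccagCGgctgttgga
Robo3: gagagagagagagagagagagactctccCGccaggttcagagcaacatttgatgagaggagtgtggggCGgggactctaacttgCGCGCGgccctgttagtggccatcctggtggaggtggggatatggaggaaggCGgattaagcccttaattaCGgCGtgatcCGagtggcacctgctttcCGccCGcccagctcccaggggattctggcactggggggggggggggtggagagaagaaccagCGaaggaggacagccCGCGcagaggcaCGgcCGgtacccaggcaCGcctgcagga

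The number of CG in these windows was 14 for Ephb1 and Ephb4, 10 for Epha2, 17 for Robo3, 27 for Sema5b and 37 for Nrp2. CG reads the same on both strands, so each was counted once, and 63 of the 72 members had a window in the table. The members' median was 22 CG, beside 7 over the 27025 genes of the table, and 81.0% of members held at least 10, beside 43.9%. The gap was smaller among genes bright enough to be tested. Among all array genes tested in at least 1 comparison and found in the table the median was 20 and 77.7% held at least 10, and among tested members 91.7% did. At least 1 CG was present in 94.2% of all windows. The 6 members called higher with both treatments had 10 to 37 CG with a median of 20, and the 8 with a window among those called lower with both had 11 to 56 with a median of 14, so the ranges overlapped. A count of CG says nothing about whether a site was methylated in these cells, which was not measured here.

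Among the EphA receptors, Epha2, an early embryonic receptor that binds several ephrin-A ligands, read 13.43 on ES, 11.01 on ELA, 13.53 on AZA and 14.38 on CHQ. It was thus lower in ELA than on any other array, by 2.42 against ES, 2.52 against AZA and 3.36 against CHQ. Epha4, which binds ephrins of both classes, read 10.40, 8.94, 11.15 and 11.27 in the same order. ELA was again the lowest array, 1.47 below ES, 2.21 below AZA and 2.33 below CHQ.

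Epha1 and Epha8 showed the reverse order. Epha1 read 12.90 on ES, 13.76 on ELA, 11.37 on AZA and 10.83 on CHQ. The treated arrays lay 2.39 and 2.93 below ELA. Epha8 read 10.43, 11.08, 8.49 and 8.99, a difference from ELA of -2.59 with AZA and -2.09 with CHQ. ELA stood above ES by 0.86 for Epha1 and 0.65 for Epha8, and neither was called there. In RefSeq the span of Epha1 overlaps that of Zyx.

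The brightest probe of Epha7 separated the inhibitors. It read 8.05 on ES, 9.31 on ELA, 7.81 on AZA and 9.99 on CHQ, so that it was called higher in ELA than in ES (1.26), lower with AZA than in ELA (-1.50) and higher with CHQ than with AZA (2.17). Of the other 2 Epha7 probes, 1 showed 0.04 in ELA minus ES and the other 1.29, and in CHQ minus AZA they showed 0.24 and 0.04. The CHQ to AZA difference therefore rests on the brightest probe. In CHQ minus ELA these other probes showed -0.24 and -1.08, opposite in sign to the 0.67 of the brightest. Epha5, with levels of 13.90 to 14.81, was not called in any comparison, and Epha3, Epha6 and Epha10 were too dim to be tested.

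Among the EphB receptors, Ephb1 read 7.29 on ES, 11.46 on ELA, 6.26 on AZA and 8.10 on CHQ. Its single probe lies at chr9:101824549-101824608 of build mm9. ELA was the high array, and the probe was not well above background on AZA. The ES to ELA rise of 4.17 was the 4th largest of the 18973 genes tested, and it is one of the values that chose these families. The difference from ELA with AZA is therefore a bound, at least 33.2-fold lower than in ELA. With CHQ it was 10.3-fold lower than in ELA, a log2 difference of -3.36. The CHQ level was at least 3.24-fold above AZA, but the mean of these arrays was below 7.5 and the pair was not tested.

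Ephb4, known as the receptor of ephrin-B2 in veins, read 11.43 on ES, 12.68 on ELA, 11.40 on AZA and 10.88 on CHQ. It was called higher in ELA than in ES (1.25) and lower than ELA with AZA (-1.29) and CHQ (-1.80), and its second probe had the same sign in each of these, with 0.88, -1.96 and -2.13. Ephb6, a family member without kinase activity, read 9.85, 10.89, 9.78 and 9.94 and was called in ELA minus ES (1.04) and AZA minus ELA (-1.11). Its second probe gave -0.05 and -0.33, so neither of these calls is shared by both probes, and in the first the sign differs too. Ephb2 and Ephb3 were not called in any comparison, with ranges over the arrays of 0.72 and 0.66. Of the 5 EphB receptors, 3 were called lower with AZA and 2 with CHQ, beside 11.4% and 11.9% of all genes. Called or not, all 5 were below ELA on both treated arrays, which were set against the same ELA array. Their medians were -1.11 for AZA and -0.95 for CHQ, beside -0.07 and -0.08 for all genes. The sign of these EphB medians against ELA was the same under every scaling tried.

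Of the 8 ephrins 0 were called between ES and ELA, where 4.51% of all genes tested were higher and 5.5% lower. With so few genes this count gives no result about the ephrins. Efnb3 came nearest to a call there, at 0.93, and reached 1.03 in the values the authors deposited. Among the ephrin-A ligands, Efna5 read 9.98 on ES, 10.56 on ELA, 8.48 on AZA and 10.93 on CHQ. The AZA array stood alone, 2.08 below ELA and 2.45 below CHQ, which made Efna5 the largest CHQ over AZA difference among the members (5.46-fold). Efna2 read 8.98, 9.23, 8.96 and 8.06, and Efna4 read 10.55, 10.66, 9.91 and 9.52. Both were called lower with CHQ than in ELA, by 1.17 and 1.14, with AZA in between. Efna1 and Efna3 were not called, and the levels of Efna3 spanned 0.29 over the 4 arrays. Efna1, Efna3 and Efna4 are neighbouring genes on chromosome 3.

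Of the ephrin-B ligands, Efnb3 read 9.42 in ES, 10.35 in ELA and 9.32 on both treated arrays, and was called lower with each (-1.03 for AZA, -1.03 for CHQ). Efnb2, the partner of Ephb4, read 10.67, 11.24, 11.18 and 12.32 and was highest with CHQ, by 1.07 over ELA and 1.14 over AZA. Its second, dimmer probe gave -0.29 and 0.18 in these comparisons. Efnb1 was not called.

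**Figure D3:**
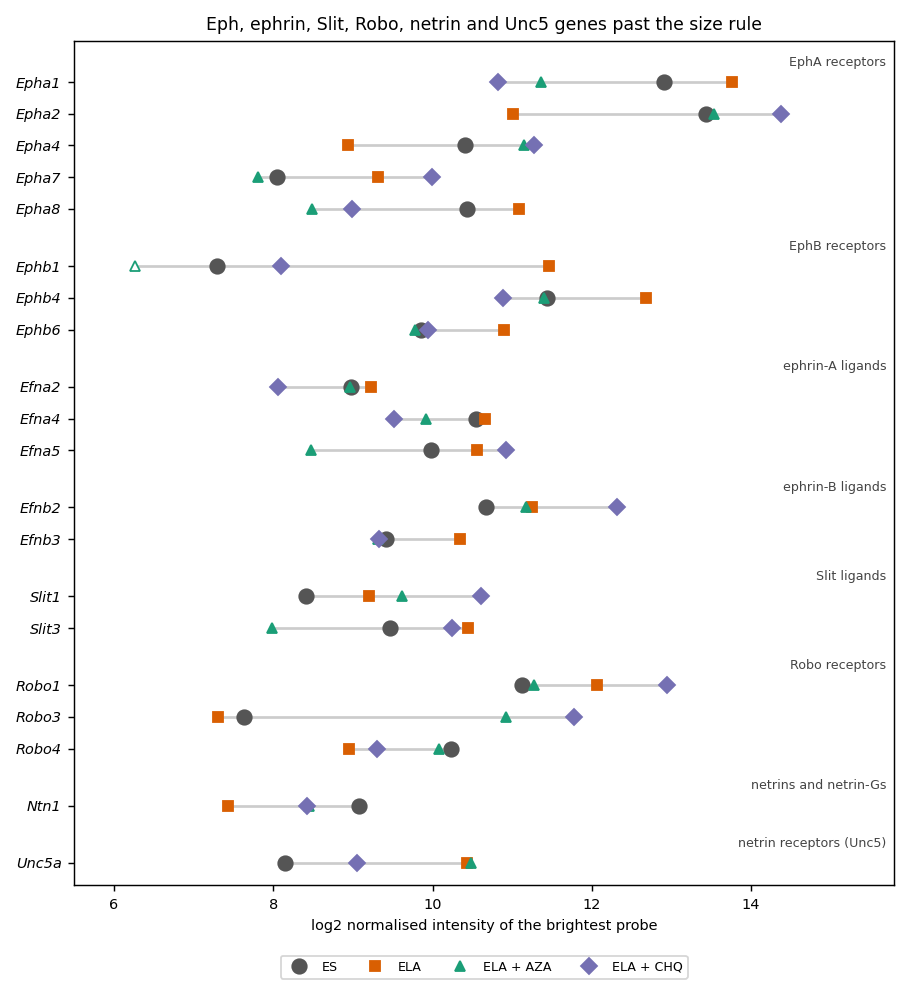
Log2 normalised intensity (horizontal axis) on the 4 arrays (ES, untreated ELA, AZA-treated ELA, CHQ-treated ELA) for each Eph, ephrin, Slit, Robo, netrin and Unc5 gene called in at least 1 comparison, 1 point per array. An open symbol is a probe not well above background; ELA is the highest array for Ephb1 (11.46) and the lowest for Epha2 (11.01) and Robo3 (7.30).

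Class 3 semaphorins are secreted and mostly repel axons. Sema3f, which binds neuropilin-2, read 9.47 on ES, 12.04 on ELA, 9.67 on AZA and 8.86 on CHQ. ELA was the high array, 2.56 above ES, and the differences from it were -2.36 with AZA and -3.18 with CHQ. Its co-receptor Nrp2 read 12.98, 9.96, 12.86 and 12.99 on the same arrays. Here ELA was the low array and the other 3 lay within 0.13 of each other, so that ligand and co-receptor stood in opposite order between ELA and the rest. The second Nrp2 probe gave smaller differences of the same sign, -2.05 in ELA minus ES, 1.64 in AZA minus ELA and 1.85 in CHQ minus ELA.

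Sema3e, which signals through plexin-D1 without a neuropilin, read 9.79 on ES, 9.62 on ELA, 6.76 on AZA and 7.76 on CHQ. It was called lower with both treatments, by 2.86 and 1.86, while ELA minus ES was -0.17. Sema3c read 8.92, 9.51, 7.21 and 8.92, a low value on the AZA array alone, 2.30 below ELA and 1.71 below CHQ. The dimmer Sema3c probe gave -0.71 and 0.37 in those comparisons. Sema3b was not called, and Sema3a, Sema3d and Sema3g were too dim to be tested. Of the 4 tested class 3 genes, 3 were called lower with AZA and 2 with CHQ, beside 11.4% and 11.9% of all genes. Called or not, all 4 were below the shared ELA array on both treated arrays. Their medians were -2.33 for AZA and -1.22 for CHQ, beside -0.07 and -0.08 for all genes.

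Of the 6 class 4 semaphorins, membrane proteins also known from the immune system, 1 was called in any comparison, beside 36.4% of all genes. With so few genes this count gives no result about the family. Sema4g, at 7.89 on ES, 8.20 on ELA, 9.34 on AZA and 8.75 on CHQ, was called higher with AZA than in ELA, by 1.14. Among all genes 14.2% were called higher there. The other 5 (Sema4a, Sema4b, Sema4c, Sema4d and Sema4f) were called in none, with all differences between -0.72 and 0.47.

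The class 5 semaphorins, membrane proteins with thrombospondin repeats, differed from ELA in opposite directions on the treated arrays. Sema5a read 7.65 on ES, 9.13 on ELA, 6.42 on AZA and 7.39 on CHQ. ELA was high by 1.49 against ES and 1.75 against CHQ, and the AZA probe was not well above background, so the fall there is at least 6.56-fold. Sema5b read 6.90 in ES, 0.60 more in ELA, 10.80 with AZA and 9.97 with CHQ, so that it was 9.78-fold above ELA with AZA and 5.51-fold with CHQ. The untreated arrays were the 2 low ones for Sema5b. Its second probe gave smaller differences from ELA on the treated arrays, 1.73 and 1.19, and a larger one in ELA minus ES, 1.08.

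Among the class 6 semaphorins, transmembrane proteins that bind A-type plexins, Sema6a read 10.16 on ES, 11.34 on ELA, 8.14 on AZA and 10.02 on CHQ. It was called in all 4 comparisons: 1.19 in ELA minus ES, -3.20 in AZA minus ELA, -1.32 in CHQ minus ELA and 1.88 in CHQ minus AZA. With the E1A scaling the first of these was 0.61 and no longer called. Sema6b read 8.07, 9.75, 8.50 and 8.11, with ELA above the other 3 by 1.68, 1.25 and 1.63. Sema6d read 12.62, 12.76, 11.66 and 11.76, and the treated arrays lay 1.10 and 1.00 below ELA, the latter just past the limit of the size rule. Sema6c was not called, with -0.58 for AZA and -0.94 for CHQ. Of the 4 class 6 genes, 3 were called lower with AZA and 3 with CHQ, beside 11.4% and 11.9% of all genes. Called or not, all 4 were below the shared ELA array on both treated arrays. Their medians of -1.17 and -1.16, beside -0.07 and -0.08 for all genes, kept their sign under every scaling.

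Sema7a, a lipid-anchored semaphorin that acts through integrins, read 8.88 on ES, 8.95 on ELA, 10.53 on AZA and 10.08 on CHQ. Both untreated arrays were low, and the treated ones were higher than ELA by 1.58 and 1.13.

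Among the plexins, receptors of the semaphorins, Plxna2 and Plxnc1 were highest on the CHQ array. Plxna2, a receptor of class 6 semaphorins, read 7.47 on ES, 8.46 on ELA, 8.59 on AZA and 10.41 on CHQ. CHQ stood above ELA by 1.95 and above AZA by 1.82, and the ES to ELA difference of 0.99 fell just short of the limit. Plxnc1, the plexin of Sema7a, read 6.50, 7.22, 6.67 and 8.50 and was higher with CHQ by 1.28 over ELA and 1.83 over AZA. The ES probe was not well above background, and the second Plxnc1 probe gave 0.24 and 0.82.

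Plxnb1, the plexin of Sema4d, read 9.78 on ES, 10.54 on ELA, 8.69 on AZA and 9.78 on CHQ, a low on the AZA array of 1.84 against ELA and 1.08 against CHQ. Plxnd1, the receptor of Sema3e, read 9.36 in ES, 1.34 more in ELA, 10.05 with AZA and 9.49 with CHQ, and was called higher in ELA than in ES and lower with CHQ than in ELA (-1.21). Its second probe gave 0.08 and -0.53. Plxna1, Plxna3 and Plxnb2 were not called, and Plxna4 and Plxnb3 were too dim to be tested. In CHQ minus AZA the 7 tested plexins had a median of 0.46, with 3 called higher (5.6% of all genes were) and 0 lower (4.8%). Of these 3, Plxnb1 was low on the AZA array and no higher on CHQ than on ES. The median stayed above 0 under every scaling. The other neuropilin, Nrp1, was well above background on the ELA and CHQ arrays only, at 7.09 and 7.68, and was not tested.

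**Figure D4:**
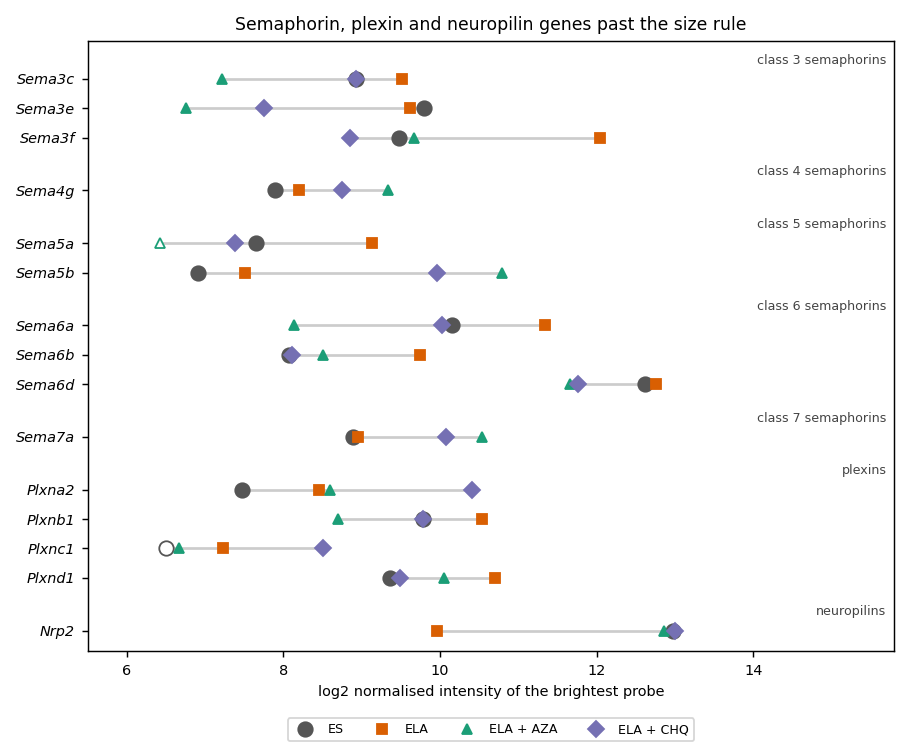
Log2 normalised intensity (horizontal axis) on the 4 arrays (ES, untreated ELA, AZA-treated ELA, CHQ-treated ELA) for each semaphorin, plexin and neuropilin gene called in at least 1 comparison, 1 point per array. An open symbol is a probe not well above background; ELA is the highest array for Sema3f (12.04) and the lowest for Nrp2 (9.96).

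Of the Slits, secreted repellents, Slit3 read 9.47 on ES, 10.45 on ELA, 7.98 on AZA and 10.24 on CHQ. The AZA array was the lowest, by 2.47 against ELA and 2.26 against CHQ. Slit1 read 8.41, 9.20, 9.61 and 10.61 and was called higher with CHQ than in ELA, by 1.42, while its CHQ minus AZA value of 1.00 lay just below the limit before rounding. Slit2 was not called.

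The Robo receptors held the largest rise with a treatment. Robo3, which in commissural axons counters Slit repulsion, read 7.63 on ES, 7.30 on ELA, 10.92 on AZA and 11.77 on CHQ. Its probe lies at chr9:37224357-37224416 of mm9. The untreated arrays were both low, and the treated ones were 12.3-fold and 22.1-fold above ELA. For Robo3 other processing settings gave log2 differences from ELA of 3.33 to 4.46 with AZA and 4.06 to 5.28 with CHQ. Its neighbour on chromosome 9, Robo4, a receptor known from endothelium, read 10.23, 8.95, 10.08 and 9.31. Robo4 was called lower in ELA than in ES (-1.28) and higher with AZA than in ELA (1.12), whereas its CHQ value exceeded ELA by 0.35. Robo1 read 11.12, 12.07, 11.27 and 12.94 and was called in CHQ minus AZA alone, at 1.67. Robo2, next to Robo1 on chromosome 16, was too dim to be tested.

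Among the netrins, Ntn1 read 9.07 on ES, 7.43 on ELA, 8.45 on AZA and 8.42 on CHQ. ELA was the low array, 1.65 below ES and 1.02 below AZA, and the CHQ minus ELA value was 1.00, just under the limit before rounding. The second Ntn1 probe gave -0.79 in ELA minus ES and -0.06 in AZA minus ELA, and was well above background on the ES array only. Ntn3 was not called, and Ntn4, Ntn5, Ntng1 and Ntng2 were too dim to be tested.

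Of the netrin receptors, Unc5a read 8.15 on ES, 10.43 on ELA, 10.48 on AZA and 9.05 on CHQ. It was 4.85-fold higher in ELA than in ES, differed from ELA by 0.05 with AZA and was 2.60-fold lower with CHQ. Unc5a was the 1 member called lower with CHQ than with AZA, by 1.43. Its RefSeq span overlaps that of Hk3. Unc5b was not called, Unc5c and Unc5d were not well above background on any array, and Unc50, at 13.12 to 13.25, was the most level of the tested genes.

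Split by role, 4 of 29 tested ligands (13.8%) were called higher in ELA than in ES and 1 (3.45%) lower, and of 22 receptors 6 (27.3%) and 4 (18.2%), beside 4.51% and 5.5% of all genes. With AZA, 10 of 29 ligands (34.5%) and 7 of 23 receptors (30.4%) were lower, beside 11.4%. The 4 ligands called higher with AZA (13.8%) are near the 14.2% of all genes, and the 5 receptors are 21.7%. With CHQ, 9 of 30 ligands (30.0%) and 6 of 24 receptors (25.0%) were lower, beside 11.9%. The 4 ligands called higher with CHQ (13.3%) are again near the share of all genes, 14.8%, and the 6 receptors are 25.0%. In CHQ minus AZA, 5 of 27 ligands (18.5%) and 5 of 23 receptors (21.7%) were higher, beside 5.6%, with 0 and 1 lower. No test of the difference between ligands and receptors was possible.

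The members called with both treatments against ELA were 6 higher (Epha2, Epha4, Nrp2, Robo3, Sema5b and Sema7a) and 11 lower (Efnb3, Epha1, Epha8, Ephb1, Ephb4, Sema3e, Sema3f, Sema5a, Sema6a, Sema6b and Sema6d). Of 53 members tested in both comparisons these are 11.3% and 20.8%, beside 9.89% higher in both and 7.73% lower in both over 18702 genes. Both treated arrays shared the ELA array and a slide here, so no independent support can be read from the overlap. The genes called higher with CHQ than with AZA were Efna5, Efnb2, Epha7, Plxna2, Plxnb1, Plxnc1, Robo1, Sema3c, Sema6a and Slit3. For Efna5, Epha7, Plxnb1, Sema3c, Sema6a and Slit3 the AZA array was at least 1 log2 unit below both ELA and CHQ, and for Efnb2, Plxna2 and Plxnc1 the CHQ array was that far above both others. Robo1 met neither condition. For Epha7, Sema3c, Efnb2 and Plxnc1 the condition held on the brightest probe alone.

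Of the 72 genes 18 had at least 2 usable probes, which gives 72 pairs of gene and comparison. In 19 of these pairs a probe of opposite sign was present. Most involve differences under 1, and 3 were called on the brightest probe: Efnb2 in CHQ minus ELA, Ephb6 in ELA minus ES and Ntn1 in AZA minus ELA. The plot of probe agreement shows the largest differences, Nrp2 and Sema5b, with the same sign in both probes.

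**Figure D5:**
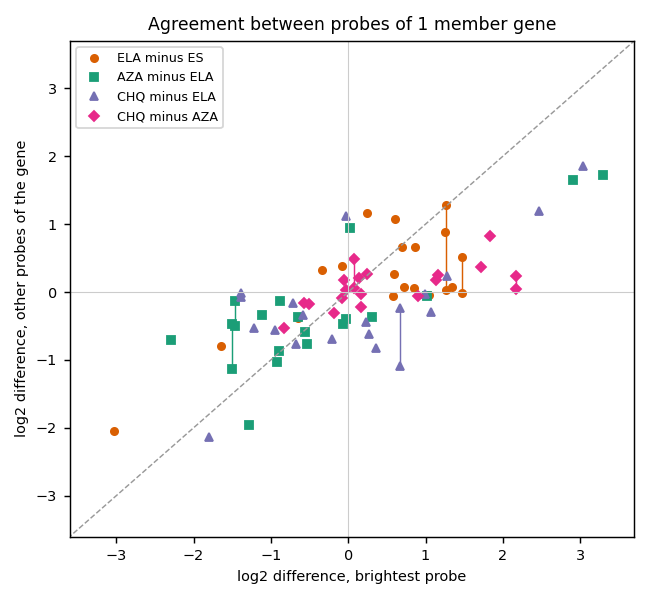
Log2 difference of the brightest probe (horizontal axis) against that of the other probes (vertical axis) for the 18 member genes with at least 2 usable probes, 1 symbol per comparison, with a thin line joining the other probes of a gene that has 3. Points on the dashed line would agree in full; Nrp2 in ELA minus ES lies at -3.02 and -2.05.

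A list of 58 partners and effectors of these receptors, picked for function, was followed in the same way. In ELA minus ES 8 of 53 tested were called higher and 1 lower, with Nrcam (a cell adhesion molecule in semaphorin receptors, 2.28), Trio (an exchange factor of the netrin pathway, 2.08) and Dpysl2 (CRMP2, a microtubule-binding effector of Sema3a, 1.45) leading and Enah (an actin regulator, -1.64) lower. These are 15.1% and 1.89% of the list, beside 4.51% and 5.5% of all genes. With AZA 20 of 54 were lower and 4 higher, or 37.0% and 7.41%, beside 11.4% and 14.2%. The largest falls were Dpysl2 (-3.78), Trio (-2.45) and Farp1 (a plexin-A binding exchange factor, -1.96), and the rises were led by Kalrn, Dcc (the attractive netrin receptor, 2.17) and Farp2 (1.78). On the ELA array Kalrn did not stand well above background, so its rise is a bound, at least 9.94-fold with AZA and at least 6.85-fold with CHQ.

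With CHQ 11 of 54 were lower and 6 higher, or 20.4% and 11.1%, beside 11.9% and 14.8% of all genes. Dpysl2 (-4.10), Dpysl4 (-2.02) and Pak1 (a kinase downstream of Rac, -1.65) led the falls, and Kalrn, Dcc (2.52) and Arhgef12 (an exchange factor bound by B-type plexins, 1.55) the rises. In CHQ minus AZA 7 of 51 were higher and 0 lower, or 13.7% higher beside 5.6%, with Trio (3.41), Vav3 (2.40) and Flrt3 (2.20) leading. Trio read 11.10 on ES, 13.18 on ELA, 10.73 on AZA and 14.13 on CHQ, low on ES and AZA and high on ELA and CHQ. Dcc read 16.46, 15.72, 17.88 and 18.24. The list's median was 0.36 in ELA minus ES, -0.38 in AZA minus ELA, 0.10 in CHQ minus ELA and 0.12 in CHQ minus AZA, and with the E1A scaling 3 of these turned below 0: ELA minus ES to -0.22, CHQ minus ELA to -0.19 and CHQ minus AZA to -0.07, beside -0.59, -0.39 and -0.18 for all genes.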

How the data were processed

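Cy3-labelled cRNA of 4 RNA pools was hybridised to 4 arrays. Per the file headers, the authors used Agilent Feature Extraction 10.7.3.1 to read the scans (version 9.1 in the submitters' processing notes, with limma). The deposited scanner files hold the mean spot intensity and the median local background intensity, neither normalised between arrays, and per-spot flags. The authors also deposited a table of log2 values, made by background correction and quantile normalisation; it correlated at r = 0.99912 to 0.99932 per array with normexp values without an offset.

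Values were computed in R 4.3.3 with limma 3.58.1: normexp (offset 50) on all 62976 spots per array, then 3671 control spots left out, quantile normalisation of 59305 gene spots, outlier spots dropped (188 to 523 per array; 0 were saturated) and spots of a probe averaged on the log2 scale. Of 55681 probes, 559 had no usable spot on at least 1 array, among them 2 of the 94 member probes (of Sema3a and Sema6d). RefSeq names (GRCm38.p6) were found for 26582 probes (47.7%), and no member gained or lost its name. A gene is its brightest probe. Probe positions are the file's, in mm9, and the probes are 60 bases long.

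With 1 array per group there is no p-value. The size limits (1 and 7.5 in log2) follow the study's methods, which also required a corrected p-value that 1 array per group cannot give. The limit of 7.5 was looser on the values used here. In ELA minus ES 18973 genes were tested, beside 16443 with the deposited values. A bound sets the bright array against the lowest signal well above background on the dim array, or the dim probe's own if higher. Array number limits precision. Members and lists were chosen with earlier results of these data known. Every called member is named, with its 4 levels, and of the partners at most 3 rises and 3 falls per comparison. Alternatives changed the background correction, the scaling, the filter, the value table and the use of probes.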

Additional observations from a re-analysis of the deposited data

How the results depend on the processing

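With 1 array per group no replicate could be left out, and no paired analysis was possible because each group has a single sample. Of the called differences, those at least 1 in size under all 8 alternatives were 9 of 15 in ELA minus ES, 24 of 26 in AZA minus ELA, 21 of 25 in CHQ minus ELA and 9 of 11 in CHQ minus AZA, and 0 reversed. Scaling on 7 E1A spike-in probes lowered the members called higher in ELA minus ES to 4, their median there to -0.16 and the CHQ minus ELA median to -0.64. Below 1 under that scaling were Epha7, Ephb4, Ephb6, Plxnd1, Sema5a and Sema6a in ELA minus ES, Ntn1 in AZA minus ELA, Efnb2, Plxnc1 and Sema7a in CHQ minus ELA and Efnb2 in CHQ minus AZA. Averaging all probes of a gene left 6 members called higher in CHQ minus AZA, with Plxnc1 (1.33) and Sema3c (1.04) ending through the brightness limit and not through size. It took Epha7, Ephb6 and Plxnd1 below 1 in ELA minus ES, Ephb6 and Ntn1 in AZA minus ELA, Efnb2, Plxnc1 and Plxnd1 in CHQ minus ELA, and Efnb2 and Epha7 in CHQ minus AZA. Efnb2 in CHQ minus ELA was also below 1 with 75th percentile scaling. Other calls ended through the filter on dim probes under at least 1 alternative while still at least 1 in size: Ntn1 in ELA minus ES, Ephb1, Ntn1, Sema3c, Sema3e and Sema5a in AZA minus ELA, Plxnc1 in CHQ minus ELA, and Plxnc1 and Sema3c in CHQ minus AZA. Calls were also gained. The count higher in ELA minus ES was 12 with no background correction, with normexp without an offset, with 75th percentile scaling (Plxna2 and Slit3 joining in these 3) and in the deposited table (Efnb3 and Slit3). Elsewhere, the filter on dim probes kept, members reached the limit under at least 1 alternative: Sema4b lower in ELA minus ES, Epha5, Ephb3 and Sema4c lower in AZA minus ELA, Ntn1 higher and Epha5, Ephb3, Ephb6, Sema4c and Sema6c lower in CHQ minus ELA, and Slit1 higher and Efna2 lower in CHQ minus AZA. The count lower in CHQ minus AZA was 2 with normexp without an offset, with 75th percentile scaling, with E1A scaling and in the deposited table. The cause of these shifts was not tested. Over all genes, E1A scaling gave 317 higher and 3897 lower in ELA minus ES (856 and 1043 as reported), 2061 and 4209 in CHQ minus ELA (2836 and 2277) and 791 and 1108 in CHQ minus AZA (1074 and 921). It also gave 2363 and 2850 in AZA minus ELA (2722 and 2193), and 75th percentile scaling 2374 and 3255 in CHQ minus ELA.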
